A study of Mus musculus with 5 samples.

Results

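Colon spheroids are epithelial cultures that grow as small three-dimensional clusters. In bulk RNA sequencing of such cultures, 10 genes of the bone morphogenetic protein (BMP) and transforming growth factor beta (TGF-beta) pathways were followed. They were chosen by symbol from 32793 gene rows: the ligand genes Bmp2, Bmp4 and Tgfb1, the receptor genes Bmpr1a and Tgfbr2, the inhibitory SMAD genes Smad6 and Smad7, and the ID genes Id1, Id2 and Id3. One group of 2 samples carried Notch1DD and Notch2DD, alleles of the Notch receptors that are deficient in dimerization (NDD), and the other group of 3 samples was wild type (WT). The genotype label gives NDD for the first group, whose samples are titled RA, an abbreviation that the labels do not explain. All 5 samples were mouse colon spheroids on a mixed background, largely C57Bl6 with a part of FVB. Age, sex, zygosity, culture medium and whether the samples came from separate animals are not given in the sources used here, so p-values measure the spread between these samples, which may be technical.

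BMP ligands bind pairs of type I and type II receptors, which phosphorylate SMAD1, SMAD5 and SMAD9. TGF-beta and activin ligands act in the same manner through SMAD2 and SMAD3, and both branches share SMAD4. ID genes and the inhibitory SMAD genes are textbook direct targets: ID proteins bind E proteins and keep them from DNA, and SMAD6 and SMAD7 feed back on the receptors. In the intestine BMP signalling is known to be strongest toward the mucosal surface and to favour differentiation, and TGF-beta is known to slow epithelial growth.

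RefSeq promoter windows (build GRCm38.p6, from 250 bases before to 50 bases after the annotated start) matched 7 of the 10 members, all but Id1, Bmp2 and Smad7. The windows of Id2, Id3 and Smad6 are shown because these are the matched genes among the feedback and target genes of the pathway. Capitals mark each match, on either strand, to the palindromic SMAD element GTCTAGAC or to the GC-rich elements GGCGCC and GGAGCC described for SMAD1 and SMAD5. The Id2 window lies at chr12:25096043-25096342 and the Smad6 window at chr9:64022010-64022309, both on the minus strand. The Id3 window lies at chr4:136143572-136143871 on the plus strand. In the GENCODE M21 annotation the Id2 and Id3 genes start further upstream than in RefSeq, so both windows lie inside the gene spans given at the end, and the windows follow the RefSeq starts.
Id2: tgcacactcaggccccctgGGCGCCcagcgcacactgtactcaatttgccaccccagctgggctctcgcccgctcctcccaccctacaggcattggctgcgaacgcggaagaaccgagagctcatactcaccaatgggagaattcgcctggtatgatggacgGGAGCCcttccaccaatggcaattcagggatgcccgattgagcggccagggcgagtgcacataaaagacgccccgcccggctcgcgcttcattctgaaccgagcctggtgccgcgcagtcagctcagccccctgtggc
Id3: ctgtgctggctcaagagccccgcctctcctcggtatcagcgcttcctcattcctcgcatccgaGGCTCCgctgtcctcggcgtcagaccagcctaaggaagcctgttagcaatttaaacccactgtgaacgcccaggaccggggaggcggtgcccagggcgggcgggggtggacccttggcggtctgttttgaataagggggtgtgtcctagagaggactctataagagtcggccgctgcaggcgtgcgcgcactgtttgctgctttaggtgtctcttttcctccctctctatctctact
Smad6: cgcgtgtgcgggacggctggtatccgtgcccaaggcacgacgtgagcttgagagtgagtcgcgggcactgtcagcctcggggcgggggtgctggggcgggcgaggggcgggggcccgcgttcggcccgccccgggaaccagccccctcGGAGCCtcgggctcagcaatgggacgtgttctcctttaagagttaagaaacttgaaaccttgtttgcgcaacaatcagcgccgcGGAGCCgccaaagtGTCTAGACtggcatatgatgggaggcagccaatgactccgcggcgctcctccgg

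The Smad6 window held 1 copy of GTCTAGAC, beginning at base 247 of the 300 bases, and 2 copies of GGAGCC. The palindrome was present in 70 of 32851 promoter windows of the same length (0.213%). The Id2 window held 1 copy each of GGCGCC and GGAGCC, and the Id3 window held 1 copy of GGAGCC on the opposite strand. These shorter words were common, in 11.9% and 30.8% of all windows. The RBPJ core TGGGAA, the word bound by the DNA-binding partner of Notch, was in 25.6% of windows. It had 0 matches in these 3 and 1 among the other matched members, in the Bmpr1a window. None of the words overlapped another in the 3 windows. A match describes letters in a window and not a bound site.

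Library totals ranged from 19192389 to 23064000 counts. The tables carry no allele information, so the genotype labels could not be checked against the Notch genes. In 61.6% of tested genes the NDD libraries differed from each other by more than the estimated group difference, so many estimates are also given with a library left out. The 12 colon epithelial markers, among them Epcam, Cdh1 and Vil1, were all expressed, with summed abundances of 17050 to 20558 TPM in NDD and 16815 to 18033 TPM in WT. Among them Krt20, a keratin gene of differentiated colon epithelium, was at 56.6 and 114.19 TPM in NDD and at 32.51, 31.94 and 4.64 TPM in WT, with no overlap. Muc2, the goblet cell mucin gene, was at 64.13 and 90.54 TPM in NDD and at 147.71, 35.67 and 22.53 TPM in WT. WT replicate 3 was the lowest library for Krt20 and Muc2. Epcam and Lgals4 also lay higher in both NDD libraries than in every WT library. Epcam was at 979.02 and 927.89 TPM in NDD and at 794.77 to 906.69 TPM in WT. Lgals4 was at 3834.42 and 3803.36 TPM in NDD and at 2964.23 to 3361.48 TPM in WT. All 12 markers were tested, and 0 were called by the edgeR test described below. Ranges of CPM (counts per 1000000 counts) with NDD higher and no overlap were found in 15.8% of all tested genes. In TPM the remaining colon epithelial markers, Muc2 among them, overlapped between the groups. In CPM, however, Cdh1, Vil1 and Cdx1 also lay higher in both NDD libraries than in every WT library. TPM is transcript abundance scaled for gene length so that each library sums to 1000000. The 10 fibroblast and smooth muscle markers summed to 3.57 and 8.42 TPM in NDD and 1.64 to 2.74 TPM in WT, and the immune markers to 3.50 and 4.21 TPM against 5.10 to 8.60 TPM. The fibroblast sum lay mainly in Pdgfrb (188 and 552 counts in NDD, 80 to 122 in WT), while Lum was at 0 and Col1a1, Dcn and Pdgfra had at most 10 counts. The immune sum lay mainly in Cd68 (37 and 50 counts in NDD, 50 to 87 in WT). Csf1r, also an immune marker, had 1 and 8 counts in NDD and 11, 23 and 70 in WT. The endothelial markers summed to 0.850 and 2.96 TPM in NDD and 0.650 to 1.13 TPM in WT, with Kdr and Emcn at 0. That sum lay mainly in Vwf (40 and 157 counts in NDD, 42 to 63 in WT). The part of these differences in the results below was not tested.

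None of the 10 members was called as changed between NDD and WT by edgeR's quasi-likelihood test at an adjusted p under 0.05, against 0.0889% of the 13501 genes tested. Of the 10, 9 had enough counts to be tested, and 2 of them had an unadjusted p under 0.05: Id2, with a lower estimate in NDD, and Smad7, with a higher one. An unadjusted p under 0.05 was found in 11.2% of all tested genes. DESeq2 called 1 member, Id2, where it called 2.64% of genes, and limma-voom and limma on log2(TPM + 1) called 0. The median log2 fold change of the 9 members was -0.016, beside -0.0047 over all tested genes, with 4 estimates above 0 and 5 below.

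**Figure D1:**
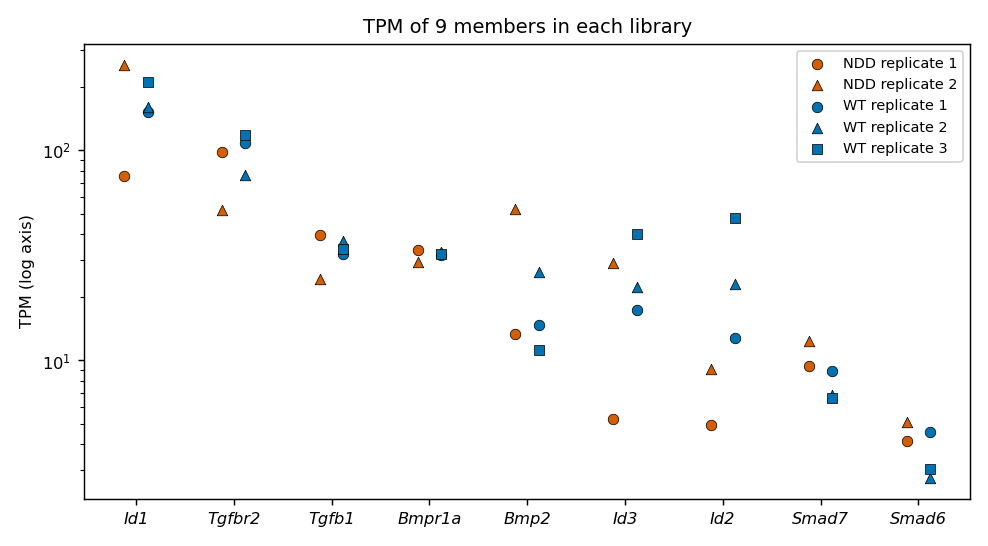
TPM of the 9 tested members in each library on a log axis, with NDD in orange and WT in blue and the marker shape giving the replicate. Id2 in both NDD libraries (4.92 and 9.09 TPM) lies below all WT libraries, and Smad7 (9.37 and 12.34 TPM) lies above them.

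The ID genes varied widely between libraries, by 9.66-fold for Id2, 7.55-fold for Id3 and 3.40-fold for Id1 between the lowest and the highest. Id2, which encodes an inhibitor of E proteins, was at 4.92 and 9.09 TPM in the NDD libraries and at 12.74, 23.04 and 47.52 TPM in the WT libraries. Both NDD libraries lay below every WT library, and WT replicate 3 stood highest. These levels rested on 73 and 136 counts in NDD and on 162, 355 and 720 counts in WT. The log2 fold change was -1.94 ± 0.62 (SE), with a 95% interval from -3.44 to -0.44 and an adjusted p of 0.413 in edgeR. The estimate is 0.261 of the WT level. The log2 value was below 0 in each of the 14 alternative fits, with adjusted p-values from 0.0279 (DESeq2) to 0.885. Leaving out WT replicate 3 gave -1.33, leaving out NDD replicate 2 gave -2.51, and taking the replicate number as a block gave -1.34. In bulk RNA, fewer cells of a type and less RNA per cell cannot be told apart. The WT libraries themselves differed by 3.73-fold between lowest and highest.

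Id1, the most abundant member, did not share this pattern. It was at 75.40 and 256.09 TPM in NDD and at 151.83, 161.71 and 211.49 TPM in WT. NDD replicate 1 was the lowest of the 5 libraries and NDD replicate 2 the highest, with the 3 WT libraries between them. Its log2 fold change was -0.016 ± 0.50 (SE), with a 95% interval from -1.23 to 1.20 and an adjusted p of 0.990 in edgeR, and its sign turned with upper-quartile scaling (0.014). It was further below 0 with limma-voom (-0.30), on the log2(TPM + 1) and log2(TPM + 0.1) scales (-0.31 and -0.32) and with the replicate number as a block (-0.15). Leaving out NDD replicate 2 gave -1.22, leaving out NDD replicate 1 gave 0.63, and leaving out WT replicate 3 gave 0.13.

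Id3, the third ID gene, was at 5.28 and 29.25 TPM in NDD and at 17.33, 22.50 and 39.86 TPM in WT. As with Id1, NDD replicate 1 was the lowest library, with 55 counts. Unlike for Id1, NDD replicate 2, with 307 counts, lay inside the WT range. The log2 fold change was -0.55 ± 0.73 (SE), with a 95% interval from -2.33 to 1.22 and an adjusted p of 0.725 in edgeR. Leaving out a library moved this to -2.34 (NDD replicate 2), 0.22 (NDD replicate 1), -0.16 (WT replicate 3) or -0.78 (WT replicate 1). The Id3 value lay between -1.02 and -0.92 with limma-voom and on the log2(TPM + 1) and log2(TPM + 0.1) scales. In all 3 ID genes WT replicate 1 was the lowest WT library and WT replicate 3 the highest.

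The balance between the ID genes differed between libraries. Id1 exceeded Id2 in TPM by 15.3-fold and 28.2-fold in the NDD libraries and by 4.45-fold to 11.9-fold in WT. Both NDD ratios lay above the WT range; this ratio was chosen after the values were seen and was not tested. The ratio of Id1 to Id3 was 14.3 and 8.76 in NDD and 5.31 to 8.76 in WT. Summed over the 3 genes, ID transcripts were at 85.6 and 294.4 TPM in NDD and at 181.9 to 298.9 TPM in WT, and Id1 supplied 70.8% to 88.1% of that sum.

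The inhibitory SMAD genes had higher estimates in NDD. Smad7, whose protein blocks TGF-beta and BMP receptors, was at 9.37 and 12.34 TPM in NDD and at 8.87, 6.84 and 6.62 TPM in WT. The groups did not overlap, although NDD replicate 1 and WT replicate 1 lay close together, at 23.9 and 23.3 CPM (counts per 1000000 counts). The log2 fold change was 0.57 ± 0.22 (SE), with a 95% interval from 0.033 to 1.11 and an adjusted p of 0.437 in edgeR. It stayed above 0 in each of the 14 alternative fits, between 0.31 (NDD replicate 2 left out) and 0.80 (NDD replicate 1 left out), with adjusted p-values from 0.0607 to 0.885.

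Smad6, which acts mainly on BMP receptors, was at 4.13 and 5.12 TPM in NDD and at 4.59, 2.75 and 3.05 TPM in WT. The WT replicate 1 library lay between the NDD libraries, so the groups overlapped. Its counts were low, 159 and 198 in NDD and 110 to 152 in WT. Smad6 had a log2 fold change of 0.45 ± 0.30 (SE), with a 95% interval from -0.29 to 1.19 and an adjusted p of 0.526 in edgeR. It was above 0 in each of the 14 alternative fits, between 0.24 (NDD replicate 2 left out) and 0.70 (WT replicate 1 left out). Smad7 exceeded Smad6 by 1.93-fold to 2.49-fold in TPM in all 5 libraries.

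Of the 9 tested members, Id2 and Smad7 thus had CPM ranges that did not overlap between groups, 1 lower and 1 higher in NDD. Such a gap was present in 32.0% of all tested genes, in 15.8% with NDD higher and in 16.2% with NDD lower. The share among the members was no higher than this background.

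**Figure D2:**
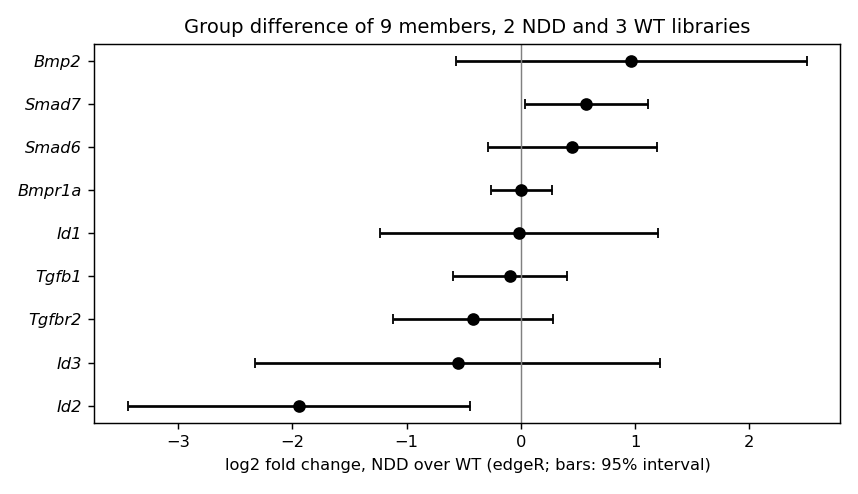
Log2 fold change of NDD over WT for the 9 tested members (points) with 95% intervals from edgeR (bars), 2 NDD and 3 WT libraries. The intervals of Id2 (-3.44 to -0.44) and Smad7 (0.033 to 1.11) leave out 0 before adjustment over all genes, and that of Bmpr1a (-0.27 to 0.27) is the narrowest.

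Among the ligands, Bmp2 was set apart by 1 library. Bmp2 encodes a BMP that differentiated intestinal epithelium is known to make. Its levels were 13.34 and 52.82 TPM in NDD and 14.74, 26.47 and 11.24 TPM in WT. NDD replicate 2 was the highest library and NDD replicate 1 lay inside the WT range. Bmp2 had a log2 fold change of 0.97 ± 0.63 (SE), with a 95% interval from -0.57 to 2.50 and an adjusted p of 0.517 in edgeR. Leaving out NDD replicate 2 turned it to -0.42, leaving out NDD replicate 1 raised it to 1.66, and the replicate number as a block gave 0.44.

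Bmp4, a BMP that is known mainly from the mesenchyme of the gut, was close to absent. It had 1 and 0 counts in NDD and 1, 0 and 0 counts in WT, all within the 3 counts that a count of 0 allows (0.129 to 0.155 CPM in these libraries, counting error only). A difference between the groups was not detectable at this depth.

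Tgfb1, the main TGF-beta ligand gene in these cultures, was at 39.57 and 24.36 TPM in NDD and at 32.11, 37.08 and 33.93 TPM in WT. The NDD libraries lay on either side of the WT range. For Tgfb1 the log2 fold change was -0.093 ± 0.21 (SE), with a 95% interval from -0.59 to 0.41 and an adjusted p of 0.836 in edgeR. With NDD replicate 1 left out it came to -0.43, and with NDD replicate 2 left out to 0.19.

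The type I BMP receptor gene Bmpr1a was the steadiest member. It was at 33.69 and 29.47 TPM in NDD and at 31.66, 32.69 and 32.18 TPM in WT, a range of 1.14-fold over the 5 libraries. For Bmpr1a the log2 fold change was 0.0038 ± 0.11 (SE), at an adjusted p of 0.989 in edgeR, and the 95% interval corresponds to 0.832 to 1.21 times the WT level. Its sign turned in 7 of the 14 alternative fits, with values from -0.047 to 0.061.

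Tgfbr2, the type II receptor gene of the TGF-beta branch, was at 98.61 and 51.81 TPM in NDD and at 108.54, 76.62 and 118.43 TPM in WT. NDD replicate 2 was the lowest library and NDD replicate 1 lay inside the WT range. For Tgfbr2 the log2 fold change was -0.42 ± 0.29 (SE), with a 95% interval from -1.12 to 0.28 and an adjusted p of 0.534 in edgeR. With NDD replicate 1 left out it came to -0.89, and with NDD replicate 2 left out to -0.048.

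**Figure D3:**
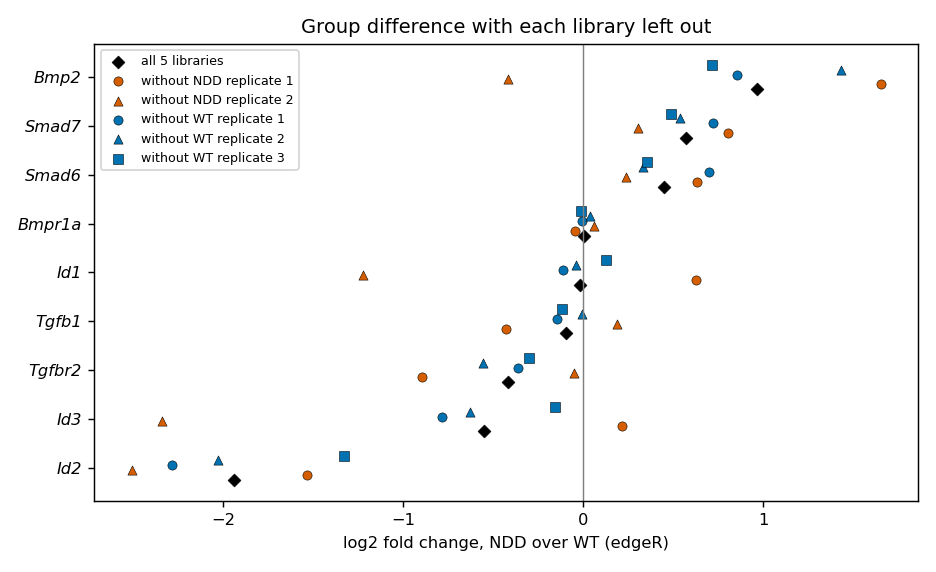
Log2 fold change of NDD over WT for the 9 tested members with all 5 libraries (black diamonds) and with each library left out (orange, an NDD library; blue, a WT library). The estimates of Bmp2, Bmpr1a, Id1, Id3 and Tgfb1 cross 0 when 1 NDD library is left out, while those of Id2, Smad6, Smad7 and Tgfbr2 keep their sign in all 5 such fits.

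The NDD libraries differed from each other more than the groups did in 6 of the 9 tested members, a share near that of all tested genes. In CPM, NDD replicate 2 exceeded NDD replicate 1 by 5.98-fold for Id3, 4.26-fold for Bmp2 and 3.67-fold for Id1. Expressed as the log2 ratio of CPM + 0.5, a gap as wide as that of Id3 was exceeded by 0.756% of tested genes, that of Bmp2 by 1.09% and that of Id1 by 1.60%. The median absolute gap over all tested genes was 0.34 on the log2 scale. Tgfbr2 and Tgfb1 went the other way, at 0.565 and 0.663 of the NDD replicate 1 level.

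Ordered by mean TPM over the 5 libraries, Id1 (171) and Tgfbr2 (90.8) stood above Tgfb1 (33.4), Bmpr1a (31.9), Bmp2 (23.7), Id3 (22.8) and Id2 (19.5), followed by Smad7 (8.81), Smad6 (3.93) and Bmp4 (0.018). Tgfbr2 exceeded Tgfb1 in all 5 libraries, Smad7 exceeded Smad6 in 5, and Smad6 exceeded Bmp4 in 5. Id1 exceeded Tgfbr2 in 4 of 5, the exception being NDD replicate 1. Tgfb1 exceeded Bmpr1a in 4, and Bmpr1a exceeded Bmp2 in 4. Id2 exceeded Smad7 in 3 of 5, namely in all WT libraries, and lay below it in both NDD libraries. The neighbours Tgfb1 and Bmpr1a, Bmp2 and Id3, and Id3 and Id2 had means that differed by less than either SD of the pair. The means of Bmpr1a and Bmp2, and those of Id2 and Smad7, differed by less than the larger SD of the pair. The SD over the 5 libraries was 5.82 TPM for Tgfb1, 1.57 TPM for Bmpr1a and 17.3 TPM for Bmp2. It was 12.9 TPM for Id3, 17.1 TPM for Id2 and 2.32 TPM for Smad7.

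The rest of the pathway was read from a list of 93 further genes in 11 roles, of which 59 were tested and 34 were not. Neither direction had a gene with an adjusted p under 0.05 in edgeR, against 0.0667% of all tested genes for rises and 0.0222% for falls. DESeq2 and limma-voom also called 0. An unadjusted p under 0.05 was found for 6 of the 59, a share near the 11.2% of all tested genes: Bmp3, Acvr1b and Nbl1 with higher estimates in NDD, and Ctgf, Gata6 and Tgif2 with lower ones (Tgif2 was singled out after its values were seen). The median log2 fold change of the 59 was -0.053. CPM ranges did not overlap in 10 of the 59, 4 higher and 6 lower in NDD, a smaller share than the 32.0% of all tested genes. Without NDD replicate 1, 5 genes were called: Bhlhe40 and Cdkn2b higher, and Bmp8b, Pmepa1 and Runx1 lower (Cdkn2b was also singled out after its values were seen). That fit called 1207 of all genes and assumes that the lone NDD library varies like the WT libraries.

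Of the 9 other BMP ligand genes, 3 were tested and 6 had at most 7 counts in any library. Bmp3, a ligand known to oppose other BMPs, was at 25.4 and 20.9 CPM in NDD and at 17.2, 12.1 and 8.84 CPM in WT. Both NDD libraries lay above every WT library, and the log2 fold change came to 0.87 ± 0.29 (SE), at an adjusted p of 0.435 in edgeR. Bmp8b was the most abundant further ligand gene at a mean of 35.2 TPM. In CPM it was at 65.3 and 36.0 in NDD and 58.8 to 70.3 in WT, with NDD replicate 2 lowest, as for Tgfbr2. Bmp8a had a log2 fold change of 0.15 (adjusted p 0.843 in edgeR), which turned to -0.046 without NDD replicate 1. Among 8 TGF-beta and activin ligand genes, Tgfb3 alone was tested, with at most 24 counts in a library and a log2 fold change of -1.39 ± 0.99 (SE), at an adjusted p of 0.541 in edgeR. It was -0.39 with the replicate number as a block and -0.19 in limma on log2(TPM + 1).

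Genes that hold or activate latent TGF-beta had 8 of 10 members tested and 0 called. Itgb6, the beta subunit of an epithelial integrin that frees TGF-beta, was at 29.0 and 16.9 CPM in NDD and at 30.6, 32.0 and 59.5 CPM in WT. The groups did not overlap in CPM, but NDD replicate 1 was close to the lowest WT library. In TPM they overlapped, with NDD replicate 1 (14.84) above WT replicates 1 and 2 (13.31 and 14.11). The log2 fold change of Itgb6 was -0.83 ± 0.38 (SE), at an adjusted p of 0.465 in edgeR. Leaving out WT replicate 3 gave -0.45, leaving out NDD replicate 2 gave -0.48 and leaving out NDD replicate 1 gave -1.28. It was -0.50 with the replicate number as a block. Its partner Itgav had a log2 fold change of -0.16 and the protease gene Furin one of -0.11, which became 0.0074 without NDD replicate 2.

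No further receptor gene was called, with 5 of 6 type I receptor genes and 5 of 8 type II receptor and co-receptor genes tested, and an unadjusted p under 0.05 was found for 1. Acvr1b, which encodes an activin receptor, was at 73.2 and 118.8 CPM in NDD and at 74.3, 60.8 and 49.9 CPM in WT. NDD replicate 2 was the highest library and NDD replicate 1 lay inside the WT range, and the log2 fold change came to 0.64 ± 0.26 (SE), at an adjusted p of 0.440 in edgeR. Without NDD replicate 2 this came to 0.26. Acvr1 and Tgfbr1 had log2 fold changes of -0.28 and -0.19. With NDD replicate 2 left out, Acvr1 was at -0.13 and Tgfbr1 turned to 0.12. Tgfbr1 was at -0.59 without NDD replicate 1. The type II receptor genes Bmpr2 and Acvr2a and the co-receptor gene Rgmb lay between 0.025 and 0.085, while the co-receptor genes Tgfbr3 and Eng had at most 2 counts (the last pair was singled out after its values were seen).

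All 6 SMAD transducer genes were tested, and none was called in edgeR (0 with an unadjusted p under 0.05). Smad1, of the BMP branch, was at 41.4 and 45.0 CPM in NDD and at 33.3, 40.7 and 31.1 CPM in WT, and the log2 fold change came to 0.30 ± 0.16 (SE), at an adjusted p of 0.481 in edgeR. Smad3, of the TGF-beta branch, was at 60.8 and 60.7 CPM in NDD and at 62.3, 67.9 and 81.7 CPM in WT, and the log2 fold change came to -0.22 ± 0.15 (SE), at an adjusted p of 0.541 in edgeR. It was -0.10 without WT replicate 3 and -0.098 with the replicate number as a block. In both genes the groups were separate by a margin smaller than the WT range. Smad4, the shared partner and the most abundant of the 6 at a mean of 74.5 TPM, had a log2 fold change of -0.14, which was -0.0058 without NDD replicate 2.

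Of 14 secreted antagonist genes, 5 were tested, Twsg1 being the most abundant at a mean of 24.9 TPM, and the other 9 had at most 9 counts, among them Nog and Grem1 with at most 3 (these were named after their values were seen). Nbl1, a secreted BMP antagonist of the DAN family, was at 19.4 and 13.0 CPM in NDD and at 6.73, 9.84 and 10.3 CPM in WT. Both NDD libraries lay above every WT library, and the log2 fold change came to 0.86 ± 0.28 (SE), at an adjusted p of 0.414 in edgeR, which ranged from 0.53 to 1.13 with 1 library left out. Dand5 had a log2 fold change of 0.35, which came to 0.037 when NDD replicate 2 was left out, and Twsg1 one of -0.045 that became 0.21 without NDD replicate 2.

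The intracellular inhibitors were all tested, 10 of 10, with 0 called and 5 estimates on either side of 0. Pmepa1, a TGF-beta-induced inhibitor, was at 200.1 and 85.5 CPM in NDD and at 177.9, 157.8 and 228.7 CPM in WT. NDD replicate 2 was the lowest library, as for Tgfbr2, and the log2 fold change was -0.40 ± 0.37 (SE), at an adjusted p of 0.621 in edgeR, or 0.10 without that library. Tgif1 and Ppm1a had log2 fold changes of 0.021 and 0.050. Tgif2, a co-repressor gene, had 52 and 49 counts in NDD and 79, 95 and 155 in WT, and the log2 fold change came to -1.12 ± 0.35 (SE), at an adjusted p of 0.411 in edgeR.

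Further BMP-responsive genes had 3 of 8 members tested and 0 called, and all 3 estimates were below 0. Over all 13501 tested genes, 6815 estimates were below 0. Gata6, a transcription factor gene of gut endoderm, was at 83.3 and 78.7 CPM in NDD and at 96.9, 102.4 and 102.6 CPM in WT. The groups did not overlap and the log2 fold change was -0.31 ± 0.11 (SE), at an adjusted p of 0.437 in edgeR, from -0.36 to -0.26 with 1 library left out. Atoh8 and Runx1 had log2 fold changes of -0.60 and -0.49. Atoh8 was at -0.35 without WT replicate 3, and Runx1 at -0.10 without NDD replicate 2 and -1.003 without NDD replicate 1.

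Of 11 TGF-beta-responsive genes, 10 were tested, with 4 estimates above 0 and 6 below. Ctgf (Ccn2), a matricellular protein gene that also responds to YAP, was at 113.7 and 72.7 CPM in NDD and at 135.3, 144.3 and 276.3 CPM in WT. Both NDD libraries lay below every WT library, with WT replicate 3 far above the rest, and the log2 fold change was -0.99 ± 0.38 (SE), at an adjusted p of 0.437 in edgeR. It was -0.59 without WT replicate 3. Cdkn1a and Bhlhe40 had NDD replicate 2 as their highest library, at 365.9 and 415.7 CPM, and log2 fold changes of 0.41 and 0.30 that became -0.29 and -0.27 without it. The E protein genes, whose products ID proteins bind, were tested in 3 of 3. Tcf3, Tcf4 and Tcf12 had log2 fold changes of -0.27, 0.16 and -0.023. Tcf4 was at 0.017 without NDD replicate 1, while Tcf3 and Tcf12 turned to 0.029 and 0.10 without NDD replicate 2. Together the E protein genes were at 112.0 and 76.7 TPM in NDD and 99.0 to 117.2 TPM in WT.

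**Figure D4:**
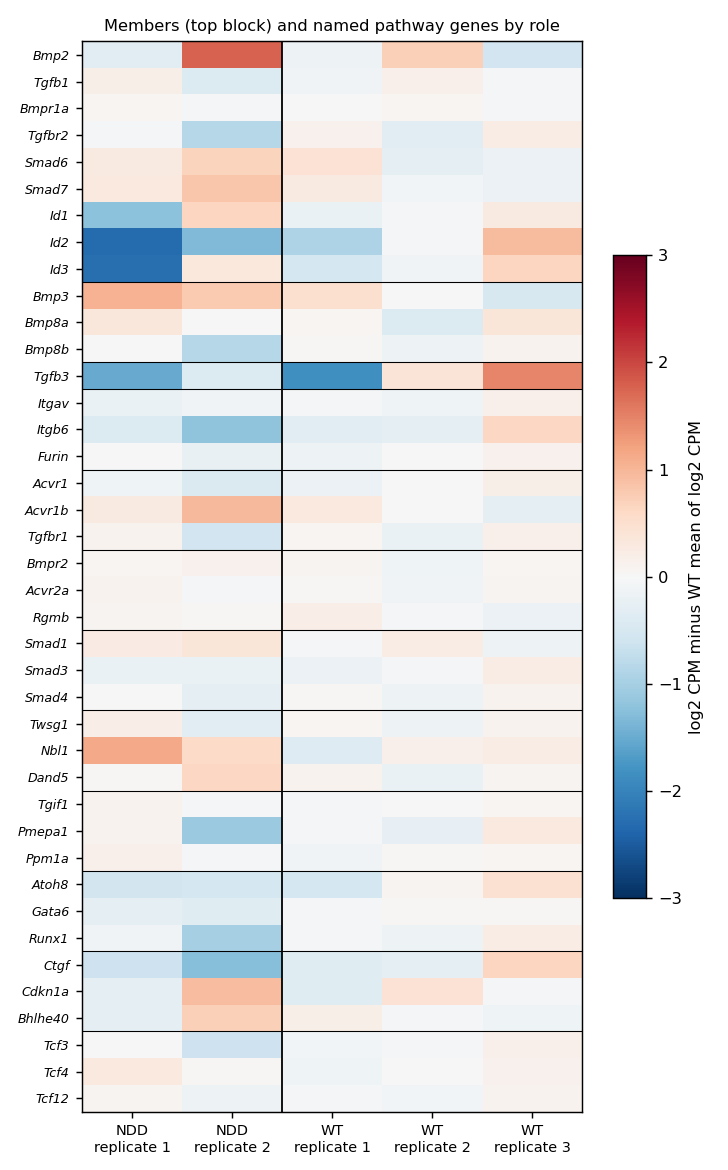
Log2 CPM of each gene minus the WT mean of its log2 CPM, for the 9 tested members (top block) and the pathway genes named by abundance in each role (blocks below), by library. NDD replicates 1 and 2 have opposite colours for Bmp2, Id1 and Id3, and both are blue for Id2 and red for Smad7.

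Patterns across the 5 libraries were compared by the root-mean-square difference of log2 CPM centred on each gene's mean, a description in which all points share the libraries. Within the pathway, Smad7 was closest to Acvr1b (0.089), Smad6 to Acvr2b (0.054), Tgfbr2 to Bmp8b (0.11), Tgfb1 to Tcf3 (0.16), Bmp2 to Cdkn1a (0.44) and Bmpr1a to Smad2 (0.029). Id1 was closest to Smad9 (0.25), Id3 to Ltbp3 (0.27) and Id2 to Tgfb3 (0.61), the last being the loosest match. Smad9, Ltbp3 and Tgfb3 had at most 48 counts in a library. Among 10290 tested genes of sufficient abundance, with predicted genes left out, those nearest Id2 were Nptxr (0.17), Arhgef17 (0.19) and Krt4 (0.25). Those nearest Id1 were Ston1, Tmem176a and Tmem237 (0.16 to 0.18), and those nearest Id3 were Cdo1, Klhdc7a and Mras (0.35 to 0.36). For Smad6 they were Mrgpra6, Zfp46 and Acvr2b (0.028 to 0.054), and for Smad7 Insr, Ly75 and Hps5 (0.057 to 0.058).

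Sequence sharing with other genes was small. In the GENCODE M21 annotation of the mm10 genome, the share of a member's 31-base words that occur in another gene was 0% for Id1, Id3, Bmp2, Smad6 and Smad7. It was 1.60% for Id2 and at most 4.08%, for Bmpr1a, whose exons overlap those of Gm17110 on the opposite strand. Bmp4 exons overlap Gm15217 in the same manner. Id2 spans chr12:25093799-25097140, Id1 chr2:152736251-152737410, Id3 chr4:136143497-136145755 and Bmp2 chr2:133552159-133562885, all protein-coding genes.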

How the data were processed

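RNA from 5 mouse colon spheroid samples was isolated with a Purelink kit and made into stranded mRNA libraries, per the labels' protocols. Bowtie2, RSEM and the build mm10 are named in the submitters' processing notes, with no version or role, and annotation and strand setting are not given in the sources used here. The authors deposited estimated counts per gene, already whole numbers and not normalized. They also deposited TPM, scaled for gene length so that each library sums to 1000000. Groups come from the genotype labels (samples titled RA are NDD) and replicate numbers from the titles, which name the columns, and 0 columns were unmatched.

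The test was edgeR 4.0.16 (R 4.3.3): TMM factors, filterByExpr (13501 genes), robust quasi-likelihood, no covariate, Benjamini-Hochberg over all genes tested, called at an adjusted p under 0.05. Standard errors are the log2 fold change divided by the root of F, and intervals are at 95%. CPM uses TMM-scaled totals. Counts deposited as rounded estimates were used unchanged. The alternatives were upper-quartile or RLE factors, no filter on counts, 10 counts in every library, DESeq2 1.42.0, limma 3.58.1 (voom, and log2 of TPM + 1 or + 0.1), the replicate block, an adjusted p under 0.10 and each library left out. On simulated data the fit recovered most of the changed genes, which were given a log2 change of 2. The share of false calls was above the threshold of 0.05. Recovery of smaller differences was not tested.

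All 10 members are named, and in each of the 11 pathway roles the 3 tested genes highest in mean TPM, plus any called gene. Genes of like pattern were searched among all tested members and pathway genes, and among all tested genes at a mean log2 CPM of at least 2. Predicted genes (Gm followed by digits, or names ending in Rik) were left out of the wider search. The pathway list was assembled by hand. The members and lists were chosen with earlier results of these data known; Cdkn1a and Bhlhe40 had been reported before.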

Additional observations from a re-analysis of the deposited data

How the results depend on the processing

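No member was called under any alternative but DESeq2, which called 1 (Id2). The pathway genes had 0 calls except without NDD replicate 1 (range 0 to 5 over the 5 fits that leave out a library). Over all genes the count of 12 was 58 with no filter, 4 with 10 counts in every library, 357 with DESeq2, 24 with limma-voom, 21 and 21 on log2(TPM + 1) and log2(TPM + 0.1), 33 at an adjusted p under 0.10, and from 0 (without WT replicate 1, where 1211 had an unadjusted p under 0.05) to 1207 (without NDD replicate 1) with a library left out. The members' median log2 fold change was -0.12 with limma-voom, -0.14 on both TPM scales, and -0.11 to 0.22 with a library left out. The mean TPM order of the members held for 5 and 4 of 10 within the NDD libraries and for 8, 8 and 5 within WT. Bmpr1a reversed with no filter (-0.00061) and on the TPM scales (-0.029 and -0.030), Tgif1 on the TPM scales (-0.023 and -0.023) and Id1 with upper-quartile factors (0.014). The cause was not tested.

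With a library left out, signs turned within these ranges: Bmp2 -0.42 to 1.66, Tgfb1 -0.43 to 0.19, Bmpr1a -0.047 to 0.061, Id1 -1.22 to 0.63, Id3 -2.34 to 0.22, Bmp8a -0.046 to 0.35, Bmp8b -0.86 to 0.017, Furin -0.22 to 0.0074, Tgfbr1 -0.59 to 0.12, Acvr2a -0.055 to 0.11, Rgmb -0.033 to 0.15, Twsg1 -0.35 to 0.21, Tgif1 -0.069 to 0.11, Pmepa1 -1.15 to 0.10, Ppm1a -0.053 to 0.15, Cdkn1a -0.29 to 0.88, Cdkn2b -0.14 to 0.89, Bhlhe40 -0.27 to 0.71, Tcf3 -0.63 to 0.029 and Tcf12 -0.15 to 0.10.

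Without a turn in sign, leaving out a library also gave Itgav -0.21 to -0.082, Bmpr2 0.038 to 0.12, Acvr1 -0.45 to -0.13, Smad3 -0.30 to -0.10, Smad4 -0.28 to -0.0058, Dand5 0.037 to 0.61, Atoh8 -0.82 to -0.35 and Tcf4 0.017 to 0.30. With the replicate block Atoh8 was at -0.32.

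The labels do not say that replicate numbers pair the samples. Across genes, deviations from the group means of same-numbered samples had correlations of 0.027 (number 1) and 0.27 (number 2), and no pairing was assumed. With the replicate block, 33 of all genes were called, with 0 members and 0 pathway genes. The members' median was -0.14, and Bmpr1a (-0.013), Rgmb (-0.029) and Tcf12 (0.028) changed sign. The filter on low counts left 34 of 93 pathway genes and Bmp4 untested, all with at most 13 counts in a library and 10 of the 34 at 0 in every library.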

Other observations

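A pair of genes that activate or hold latent TGF-beta was high in NDD replicate 1, chosen after the values were seen. Itgb8, an integrin subunit gene, had 206 and 11 counts in NDD and 48, 9 and 25 in WT. Ltbp1, which encodes a latent TGF-beta binding protein, had 48 and 1 counts in NDD and 12, 4 and 7 in WT. Their log2 fold changes were 1.86 (SE 1.15, edgeR adjusted p 0.506) and 1.57 (SE 1.20, edgeR adjusted p 0.565), and neither was called. In both genes NDD replicate 2 lay near or below the low end of the WT range, as opposed to Bmp2, Id1 and Id3, where it was the higher NDD library. Other genes of the same role ran the other way: Ltbp3 had 10 and 37 counts in NDD and 18, 34 and 48 in WT, and Ltbp4 had 153 and 324 counts in NDD and 197, 206 and 495 in WT.

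Krt4, a keratin gene among those nearest to Id2 in pattern, was at 25.9 and 83.4 CPM in NDD and at 86.3, 171 and 270 CPM in WT. Arhgef17 was at 7.04 and 16.4 CPM in NDD and at 17.5, 33.4 and 52.7 CPM in WT. As for Id2, both NDD libraries lay below every WT library and WT replicate 3 was highest. These genes were found by their likeness to Id2, so this is a description and not a test.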
